A study of Rattus norvegicus with 11 samples.

Results

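miRNAs best known from neurons and glia were measured in isolated pancreatic islets of rats. They were chosen by name: rows called miR-124, miR-9, miR-9a, miR-9b, miR-128, miR-138, miR-219a or miR-338 and counted in the sense direction, and rows called miR-3065 on either strand. This took 13 of the 950 rows of the count table, namely 3 of miR-124, 3 of miR-128, 4 of miR-138 and 3 of miR-3065. Rows with the names miR-9, miR-219a or miR-338 were 0 in number, and reads at the places of miR-9, miR-219a and miR-338 were found under other names, as described here. The islets came from Sprague-Dawley rats, with 6 libraries from adult males of 3 months and 5 libraries from pups of 10 days (P10), all from control animals. Small RNA libraries were made from total islet RNA, and each library is a biological replicate per the labels. Whether animals were pooled for a library is not in the labels. The adults were males and the labels used here give the pups no sex, so an effect of age and one of sex cannot be told apart. Library totals ran from 1432929 to 2847837 counts in adults and from 1599157 to 4483017 counts at P10.

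A miRNA is cut from a hairpin precursor as a 5p and a 3p arm, and the loaded arm finds messages mainly through its seed, the bases 2 to 8 counted from its 5′ end. miR-124 and miR-9 are hallmarks of the neuronal lineage, where the repressor REST keeps their genes silent outside neurons. Endocrine cells of the pancreas lack most REST activity and share parts of the neuronal programme, and miR-124 and miR-9 have been tied to Foxa2 and to exocytosis genes in beta-cell lines. miR-128 and miR-138 are abundant in brain, and miR-338 and miR-219 promote the maturation of oligodendrocytes. Islets are also wrapped by Schwann cells and reached by nerve fibres.

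The mature sequences at the places with enough reads to compare, from RefSeq (GRCr8), are given to show which seeds are annotated there. Capitals mark the seed, and each of these seeds differs from the others.
miR-128-3p: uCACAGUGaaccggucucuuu
miR-138-5p: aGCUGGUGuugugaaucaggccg
miR-338-3p: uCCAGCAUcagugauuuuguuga
miR-3065-5p: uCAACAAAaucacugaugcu
miR-9a-5p: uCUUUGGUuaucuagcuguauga
miR-128-3p is the same 21 bases in the Mir128-1 and Mir128-2 hairpins, which lie within R3hdm1 and Arpp21. miR-138-5p is the same 23 bases in Mir138-1 and Mir138-2. Mir338 and Mir3065 occupy opposite strands of 1 place within Aatk: all 20 bases of miR-3065-5p are the reverse complement of bases of miR-338-3p. A read counted antisense to miR-3065-5p therefore lies on the strand of miR-338-3p.

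The members were minor miRNAs of these islets. The most abundant, miR-128-3p, ranked 177 of 898 mature names by mean CPM (counts scaled to 1e6 in each TMM-normalized library). miR-375-3p, the leading endocrine miRNA, ranked 1. Of the 13 members, 5 passed the abundance filter, which asks for about 10 counts in enough libraries of an age, and were tested. The other 8 held from 3 to 81 counts over all 11 libraries and are given by their counts. Ligation bias differs between miRNAs, so levels of different miRNAs are set side by side only roughly.

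**Figure D1:**
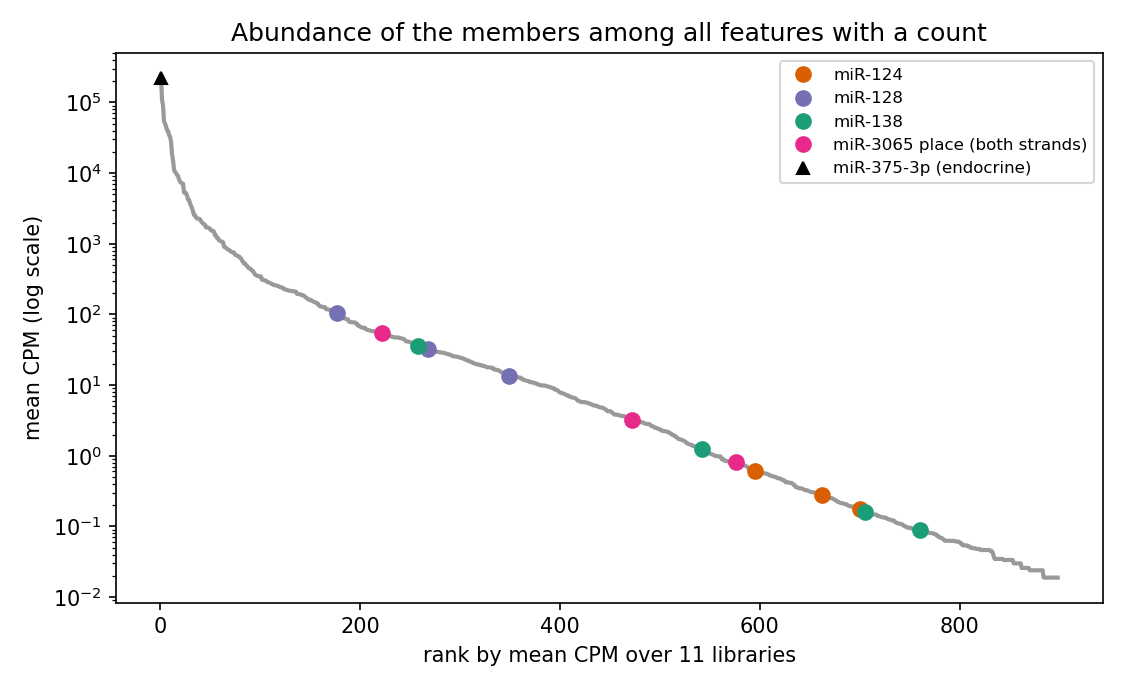
Mean CPM over 11 libraries (log axis) against rank, for all features with a count (grey line), with the 13 members coloured by family and miR-375-3p as a triangle. The members start at rank 177 and reach down to rank 760.

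miR-124, the most neuron-specific of these miRNAs, held few counts at both ages. Its 3 loci, on chromosome 15 (51712803 to 51712822), chromosome 2 (122049089 to 122049108) and chromosome 3 (180116178 to 180116197; Rnor_5.0, all on the plus strand), gave 18, 12 and 5 counts in all libraries together. Summed over the loci, the adult libraries (replicates 1 to 6) held 0, 2, 2, 1, 3 and 0 counts. The P10 libraries (replicates 1, 3, 4, 5 and 6) held 4, 2, 5, 5 and 11 counts. In CPM the sums averaged 0.656 ± 0.565 over adults and 1.54 ± 0.420 over P10 libraries (SD, n = 6 and 5), and the ranges of the ages overlapped. Above 3 counts, the number that a library with 0 counts still allows, were 0 of 6 adult and 4 of 5 P10 libraries. In adults 3 counts equal between 1.11 and 2.54 CPM, and at P10 between 0.624 and 2.02 CPM. The numbers of libraries above 3 counts are thus not at equal depth, and such limits cover counting error only. The difference of the summed miR-124 between ages was not tested. The defining neuronal marker of the set was thus near 0 in these counts. How reads that match more than 1 of its 3 loci were counted is not given in the sources used here. Its level in the islets stays uncertain to that extent.

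miR-128 was the best measured family, and its main arm was higher in 5 of 6 adults than in any P10 library without passing the test. miR-128-3p on chromosome 13 (50001755 to 50001775, plus strand), the arm with the shared seed CACAGUG, was at 124.5, 73.3, 118.9, 115.4, 126.9 and 123.5 CPM in adult replicates 1 to 6. At P10 it was at 83.6, 78.7, 86.8, 114.0 and 96.3 CPM in replicates 1, 3, 4, 5 and 6. Adult replicate 2 was below every P10 library, while the other adult libraries were above every P10 library. The log2 fold change (adult minus P10) was 0.30 ± 0.16 (SE), with a 95% interval from -0.048 to 0.66 (edgeR adjusted p = 0.135). Without adult replicate 2 it was 0.40 and passed as higher in adults (edgeR adjusted p = 0.0350), and it also passed with DESeq2 (adjusted p = 0.0370) and with upper-quartile scaling (edgeR adjusted p = 0.0305).

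The second copy and the 5p arm of miR-128 lay closer to 0. miR-128-2-3p on chromosome 8 (119718197 to 119718217, minus strand) averaged 32.1 ± 9.09 CPM over adults and 32.2 ± 6.16 CPM over P10 libraries (SD, n = 6 and 5). Its log2 fold change was 0.016 (95% interval -0.45 to 0.48; edgeR adjusted p = 0.954), and the sign turned with library totals alone and with a filter at a mean of 10 CPM. miR-128-5p on chromosome 13 (50001720 to 50001740) averaged 13.2 ± 4.36 CPM over adults and 14.0 ± 1.97 CPM over P10 libraries (SD, n = 6 and 5). Its log2 fold change was -0.079 (95% interval -0.58 to 0.42; edgeR adjusted p = 0.772), with a sign that turned under DESeq2 size factors and upper-quartile scaling.

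Although both miR-128 genes give the same mature 3p sequence, the table credits them unequally. Chromosome 8 took 23.7% of the 3p counts over all libraries, with 21.99% ± 4.29 over adults and 26.1% ± 5.62 over P10 libraries (SD, n = 6 and 5). The adult shares ran from 14.5% to 26.4% and the lowest P10 share was 21.4%, so the ages overlapped. How reads that match both genes were assigned is not given in the sources used here, and these shares cannot be read as output of each gene. Summed over both genes, miR-128-3p averaged 145.9 ± 25.7 CPM over adults and 124.02 ± 12.3 CPM over P10 libraries (SD, n = 6 and 5), with a log2 fold change of 0.23 (edgeR adjusted p = 0.217).

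**Figure D2:**
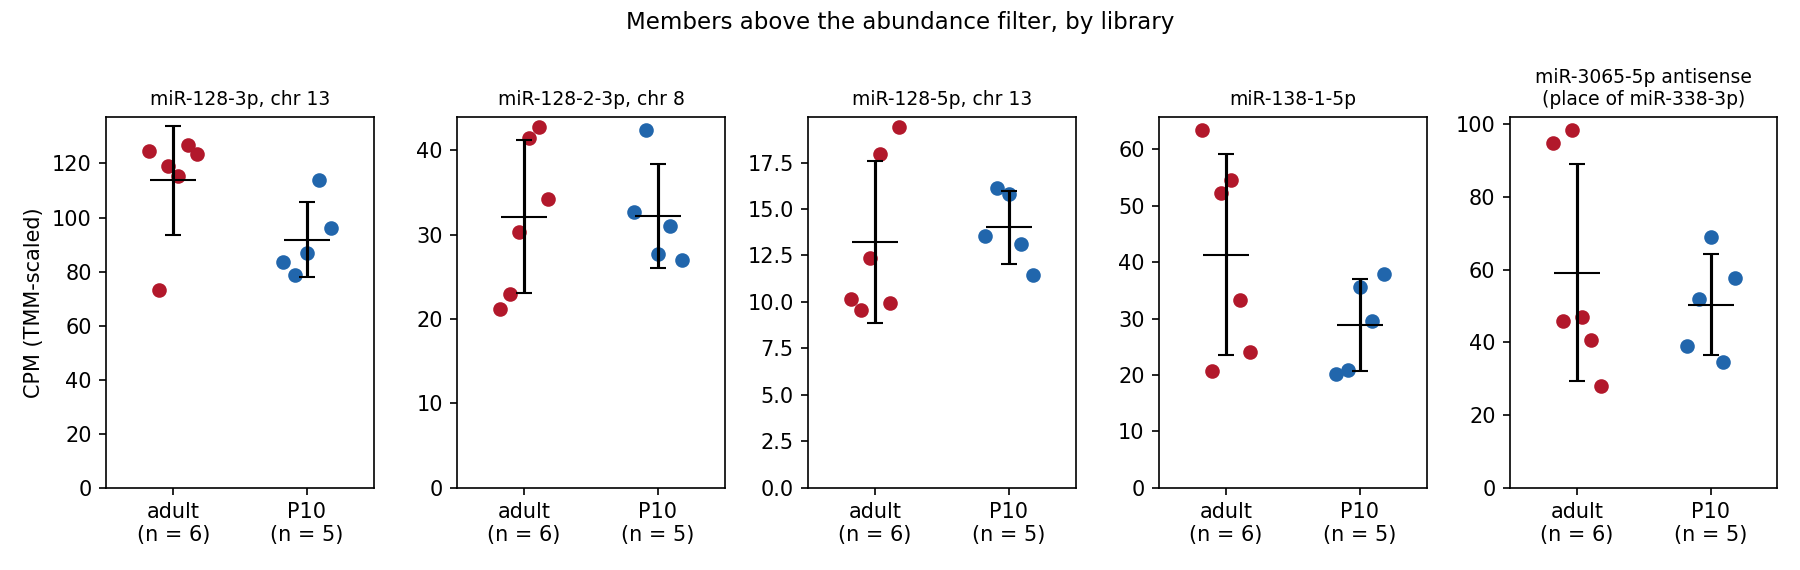
CPM of the 5 members that passed the abundance filter, with 1 point per library, adults (red, n = 6) to the left of P10 (blue, n = 5), and a bar for mean and SD. The ranges of the ages overlap in every panel, and adult replicate 2 lies apart at 73.3 CPM for miR-128-3p.

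miR-138 was credited almost wholly to its Mir138-1 hairpin and its 5p arm, whose seed is GCUGGUG. miR-138-1-5p on chromosome 8 (130886790 to 130886812, plus strand) was at 63.5, 20.6, 52.2, 54.6, 33.2 and 24.0 CPM in adult replicates 1 to 6. In P10 replicates 1, 3, 4, 5 and 6 it was at 20.2, 20.8, 35.6, 29.6 and 37.8 CPM. Adult replicates 1, 3 and 4 were above every P10 library and the rest lay within the P10 range. The log2 fold change was 0.48 ± 0.31 (SE), with a 95% interval from -0.18 to 1.14 (edgeR adjusted p = 0.201), so a rise of up to 2.21-fold in adults was within the error. The copy with the same 5p sequence on chromosome 19 (miR-138-2-5p, 11127530 to 11127552, minus strand) held 33 counts, 3.41% of the 5p counts, with the same doubt over reads that match both genes. The 3p arms of Mir138-1 and Mir138-2 held 4 and 3 counts.

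At the miR-3065 place the reads lay on the strand of miR-338. Antisense reads made up 98.8% of the counts at miR-3065-5p, 1463 antisense against 18 sense. At miR-3065-3p, opposite miR-338-5p, 81 antisense counts were found, against 0 sense counts. miR-3065 itself, by its sense 5p row, held 0 to 4 counts in adult libraries and 0 to 2 counts in P10 libraries. The assignment to miR-338 rests on the overlap of the annotated places and not on a row with that name.

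These miR-338-3p reads varied widely among adults, and their difference between ages did not pass the test. miR-3065-5p antisense (chromosome 10, 108793413 to 108793432) was at 94.8, 45.8, 98.3, 47.0, 40.6 and 28.1 CPM in adult replicates 1 to 6. The P10 replicates 1, 3, 4, 5 and 6 had 39.0, 51.8, 68.9, 34.5 and 57.8 CPM. Adult replicates 1 and 3 were above all P10 libraries, adult replicate 6 was below all, and the other 3 adults lay within the P10 range. The log2 fold change was 0.21 ± 0.32 (SE), with a 95% interval from -0.47 to 0.90 (edgeR adjusted p = 0.590), and with library totals alone it was -0.067 (edgeR adjusted p = 0.872).

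By edgeR's quasi-likelihood test with Benjamini-Hochberg adjustment over all 457 tested miRNAs, 0 of the 5 tested members were called, and 0 had an unadjusted p under 0.05, which 57.1% of all tested miRNAs had. DESeq2 and edgeR with upper-quartile scaling each called 1, miR-128-3p, and limma-voom called 0. Of all tested miRNAs 50.8% were called, 21.2% as higher and 29.5% as lower in adults. The CPM ranges of the ages did not overlap for 0 of the 5 members, against 30.0% of all tested miRNAs. The median log2 fold change was 0.21 over the 5 members and -0.11 over all tested miRNAs. Scaling by library totals alone gave medians of -0.067 over the members and -0.37 over all, and upper-quartile scaling gave 0.35 and 0.053. The 5 members are not independent miRNAs, as 3 of them are rows of miR-128.

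The balance of the arms was also compared, since it depends little on the scaling. For miR-128 on chromosome 13 the log2 of 5p CPM over 3p CPM averaged -3.06 ± 0.43 over adults and -2.64 ± 0.36 over P10 libraries (SD, n = 6 and 5). The difference of -0.42 ± 0.25 (SE) did not pass (limma adjusted p = 0.223 over 201 precursors, of which 23.4% passed). For the antisense rows of miR-3065, which stand for miR-338-3p over miR-338-5p, the log2 ratio averaged 3.92 ± 0.47 over adults and 3.71 ± 0.53 over P10 libraries (SD, n = 6 and 5; limma adjusted p = 0.654). In each of the 11 libraries the 3p row exceeded the 5p row for miR-128, as did the miR-338-3p reads those of miR-338-5p. Reads of miR-128-3p can match both genes, so its ratio cannot be read as that of the chromosome 13 hairpin. The miR-338-5p reads were 3 to 8 counts in adult libraries and 4 to 15 at P10, under the abundance filter.

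The members differed in how much they varied between libraries of 1 age. Among adults the SD of log2 CPM was 0.71 for miR-3065-5p antisense and 0.66 for miR-138-1-5p, where 93.0% and 91.2% of tested miRNAs had an SD at or below these. For miR-128-3p it was 0.30, near the median of 0.33. Among P10 libraries the SDs of the first pair were 0.40 and 0.41, against a median of 0.32, and that of miR-128-3p was 0.21. The highest adult library held 3.50 times the CPM of the lowest for miR-3065-5p antisense, 3.08 times for miR-138-1-5p and 1.73 times for miR-128-3p.

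The miRNA whose pattern was most like that of the miR-338-3p reads was counted at a miR-9 gene. Likeness was the root mean square difference of log2 CPM over the 11 libraries, after each miRNA was centred on its own mean, among the 456 other tested miRNAs. The closest was miR-3597-2-3p antisense (0.20), then miR-3597-3-3p antisense (0.32) and miR-219-1-3p (0.36), against a median of 0.71. In RefSeq, Mir3597-2 and Mir3597-3 lie opposite Mir9-2 and Mir9-3. The 18 bases of their 3p arm are the reverse complement of bases of miR-9a-5p, so these antisense reads lie on the strand of miR-9a-5p. The miR-3597-2 and miR-3597-3 rows thus stand for the same mature sequence and are not separate likenesses. These rows fall outside the rule for the members, and their place at miR-9 was looked up with their values in view.

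At the miR-9 places the level was again low, and the difference between ages did not pass the test. miR-3597-2-3p antisense (chromosome 2, 11746840 to 11746857) was at 37.3, 16.4, 34.4, 17.96, 15.1 and 10.2 CPM in adult replicates 1 to 6. In P10 replicates 1, 3, 4, 5 and 6 it was at 13.9, 16.8, 25.1, 10.3 and 13.3 CPM. Adult replicates 1 and 3 stood above all P10 libraries, as at miR-338-3p. The log2 fold change was 0.43 ± 0.34 (SE; 95% interval -0.31 to 1.17; edgeR adjusted p = 0.312). miR-3597-3-3p antisense (chromosome 1, 142191197 to 142191214) averaged 6.07 ± 2.37 CPM over adults and 6.03 ± 1.92 CPM over P10 libraries (SD, n = 6 and 5; edgeR adjusted p = 0.995), with a log2 fold change of -0.0027 whose sign turned with 7 other settings and when some libraries were left out. The third copy, miR-3597-1-3p antisense, held 22 counts. Summed over the 3 copies, which share the sequence of miR-9a-5p, these reads came to 29.0 ± 13.7 CPM over adults and 22.6 ± 7.36 CPM over P10 libraries (SD, n = 6 and 5). How reads that match more than 1 copy were counted is not known, which limits both the single copies and their sum.

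miR-219-1-3p, from the gene of the oligodendrocyte miRNA miR-219a, was also the nearest to miR-138-1-5p, at 0.31 against a median of 0.71. It averaged 6.24 ± 2.30 CPM over adults and 4.70 ± 0.329 CPM over P10 libraries (SD, n = 6 and 5; edgeR adjusted p = 0.354), from 7 to 25 counts a library. The other arm, miR-219-1-5p, did not pass the abundance filter, with 87 counts and means of 2.13 ± 0.797 CPM over adults and 3.22 ± 2.38 CPM over P10 libraries (SD, n = 6 and 5). Next came miR-342-5p (0.36) and miR-30c2-3p (0.39), of which miR-30c2-3p rose in adults (log2 fold change 0.55; edgeR adjusted p = 0.0174, and 0.186 with library totals alone). miR-3065-5p antisense ranked 12 of 456 in likeness to miR-138-1-5p, at 0.44. miR-128-3p had other neighbours. They were miR-485-5p (0.13), a brain miRNA of the imprinted Dlk1-Dio3 region, miR-455-3p (0.16) and miR-423-3p (0.17), against a median of 0.53. Of these, miR-423-3p rose in adults (log2 fold change 0.58; edgeR adjusted p = 0.00821, and 0.142 with library totals alone).

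**Figure D3:**
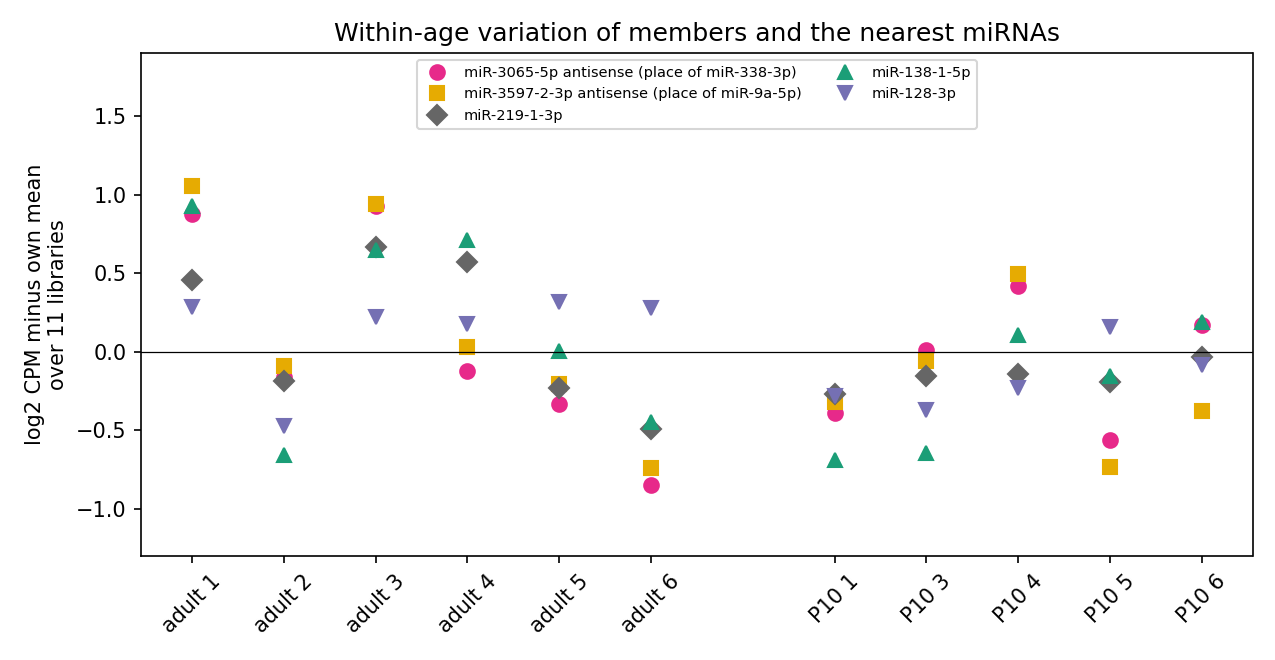
log2 CPM of each miRNA minus its own mean over 11 libraries, with adults left of P10 and 1 point per miRNA and library. miR-3065-5p antisense and miR-3597-2-3p antisense run together and are highest in adult replicates 1 and 3, while miR-128-3p stays within a narrower range.

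Levels of other cell types were set beside this variation, and their part in it was not tested. In bulk islets, fewer cells of a type and less RNA per cell cannot be told apart. The summed mesenchymal list had 8 of 8 features tested and 4 lower in adults. It ran from 17594 to 58890 CPM in adults and from 33687 to 61556 CPM at P10. Adult replicate 1 was the highest adult, and replicates 2 and 3 were at 32297 and 31934 CPM. The most abundant feature of this list, miR-143-3p, was not among the 4 (edgeR adjusted p = 0.174). It averaged 29207.5 CPM over adults, where the whole list averaged 30248 CPM, so the sum mostly follows miR-143-3p. The leukocyte list had 4 of 7 features tested and 1 lower in adults. It ran from 249.0 to 832.5 CPM in adults and from 681.2 to 1427 CPM at P10. Adult replicates 1, 2 and 3 were at 750.1, 764.5 and 832.5 CPM. The most abundant feature of this list, miR-142-5p, was not the 1 that was lower (edgeR adjusted p = 0.162). The acinar list (3 of 6 tested, 2 higher in adults, led by miR-217-5p) ran from 28.6 to 127.1 CPM in adults and from 22.2 to 37.7 CPM at P10. Adult replicates 1, 3 and 6 were its highest libraries at 110.9, 123.7 and 127.1 CPM, of which replicates 1 and 3 were the highest and replicate 6 the lowest for miR-338-3p reads. The endothelial list, led by miR-3567-3p antisense (2 of 3 tested, both lower in adults) and taken for miR-126 only because the RefSeq genes of these names overlap, ran from 3105 to 4688 CPM in adults and from 4550 to 10244 CPM at P10. Adult replicates 1 and 3 were both among the 3 highest adults in the mesenchymal, leukocyte and acinar lists. This did not hold for the endothelial list, with replicate 3 at 3935 CPM, below replicates 2 and 5 (4070 and 4058 CPM). Nor did it hold for an erythroid list (replicate 1 at 28.8 CPM), a muscle list (replicate 1 at 11.9 CPM) or the endocrine list (replicate 3 at 263522 CPM). No feature of these lists was at 0 in every library, but this holds for all 898 names and says nothing about these cell types.

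A list of other neuron-enriched miRNAs was measured in the same libraries. Of its 23 tested members, 12 rose in adults, 1 fell and 10 did not pass, beside 21.2% higher and 29.5% lower of all tested miRNAs, with a median log2 fold change of 0.77 (upper-quartile scaling gave 16 that rose and 1 that fell, library totals gave 9 and 1). The 23 are arms and loci and not independent miRNAs, as are the names behind the shares of all tested miRNAs. Those that rose include miR-7a-1-5p, miR-7a-2-5p, miR-7a-2-3p and miR-7b-5p of 1 family. They also include miR-132-3p, miR-212-3p and miR-212-5p of 1 cluster. The difference of this list from the 5 members was not tested. The list was set down with earlier results of these data known, so its direction is no independent evidence. Its summed level was 3936 to 5089 CPM in adults and 2131 to 2885 CPM at P10, and adult replicates 1 and 3, the highest for the miR-338 and miR-9 places, were the 2 lowest adults at 3936 and 4045 CPM.

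Those that rose included miRNAs known in endocrine as well as neuronal cells. miR-7a-1-5p and miR-7a-2-5p, of a family abundant in islets, rose 2.47-fold and 2.45-fold, and the 3p arm miR-7a-2-3p was up by 2.16-fold. miR-7b-5p rose 1.71-fold, a call that ended with library totals alone (edgeR adjusted p = 0.162) and when adult replicate 2, 5 or 6 or P10 replicate 1, 3 or 5 was left out (edgeR adjusted p of 0.0538 to 0.0687). miR-212-3p and miR-212-5p, induced by activity and cyclic AMP, rose 4.78-fold and 2.78-fold, and miR-132-3p from the same cluster rose 2.43-fold. miR-129-1-3p rose 3.31-fold, though its lowest adult library (79.7 CPM) lay below its highest P10 library (97.8 CPM). Other miR-129 rows, named with their values in view, were divided. miR-129-2-5p rose (log2 fold change 0.90; edgeR adjusted p = 0.00514). miR-129-1-5p (0.41; edgeR adjusted p = 0.0625) and miR-129-2-3p (-0.11; edgeR adjusted p = 0.757) were not called. The member that fell was miR-218-5p, a motor neuron miRNA also found in mesenchyme, at 14.8 ± 7.97 CPM over adults and 37.5 ± 8.72 CPM over P10 libraries (SD, n = 6 and 5). Its log2 fold change was -1.38 ± 0.31 (SE), with edgeR adjusted p = 0.00245, and its name was chosen with its values in view. Beside it stand the 8 mesenchymal features, of which 4 were lower in adults and 4 were not called, and their part in it was not tested. miR-375-3p rose (log2 fold change 1.01; edgeR adjusted p = 8.67e-06). Of the 3 tested features of the endocrine list it was the only 1 higher in adults. miR-184-3p, named with its values in view, was lower (log2 fold change -1.26; edgeR adjusted p = 0.000160).

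**Figure D4:**
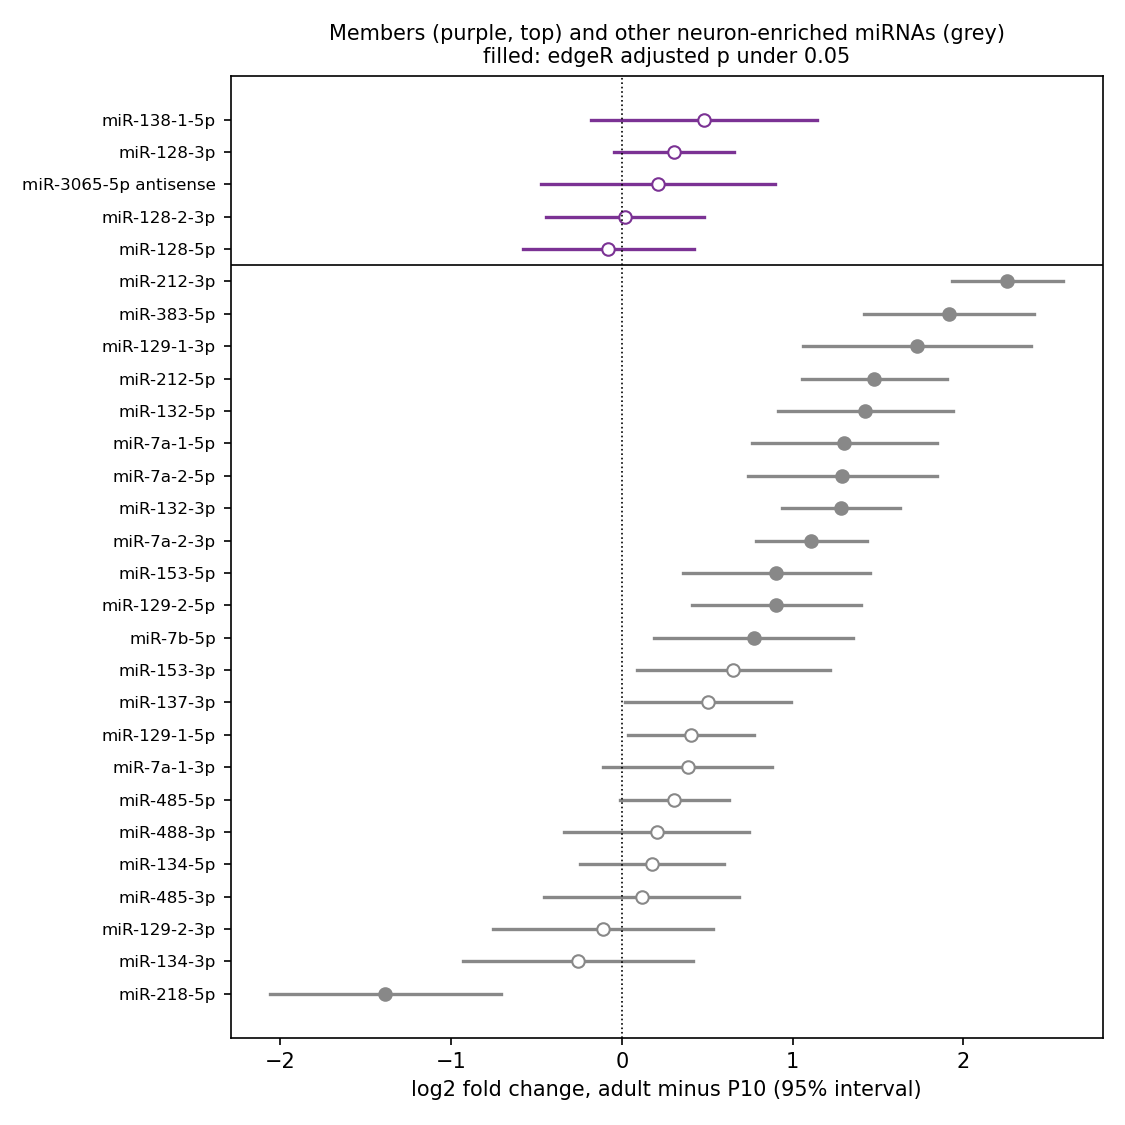
log2 fold change, adult minus P10, with 95% intervals, for the 5 tested members (purple, upper block) and 23 other neuron-enriched miRNAs (grey, lower block), filled where the edgeR adjusted p was under 0.05. All 5 members are open, and 13 of the 23 others are filled.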

How the data were processed

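Small RNA sequencing counts of 6 adult and 5 P10 islet libraries were analysed. The authors deposited raw counts, 1 row for each mature arm at each locus, tagged sense or antisense. Coordinates are on Rnor_5.0 per the file headers. The submitters' processing notes name rn5, edgeR and DESeq. Of the aligner, the counting rule and the treatment of reads with several places, the sources used here say nothing. The 11 per-library tables equalled the series table.

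Each mature name entered once, by the highest of its row counts per library (898 names). edgeR 4.0.16 in R 4.3.3 filtered by expression (filterByExpr, minimum count 10), scaled libraries by TMM and tested age with its robust quasi-likelihood fit. Benjamini-Hochberg adjustment ran over the 457 tested names, with a threshold of 0.05. Intervals of fold changes are at 95%. Log2 CPM used a prior count of 2. Arm ratios were tested with limma 3.58.1 over precursors with a mean of at least 1 CPM in both arms. The scripts were tested on simulated counts with known changes.

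All members are accounted for, and tested members are given with values. The 3 nearest miRNAs are named for the leading arm of each family with a tested member, which leaves out miR-124. Of the other neuron-enriched list, the 8 most abundant that passed were named, and names outside this rule are marked. Members and lists were chosen with earlier results of these data known. Sequences and overlaps of hairpins are from RefSeq (GRCr8), for which no coordinates are printed. Alternatives were other scalings, filters, DESeq2 1.42.0, limma-voom, the replicate number as a block, other handling of rows, and leaving out each library. At these totals 1 count is 0.208 to 0.847 CPM. Libraries of 1 age differed by more than sampling noise (chi-square over its degrees of freedom was at least 13.0). PCR reads without molecular identifiers are not independent molecules.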

Additional observations from a re-analysis of the deposited data

Results flagged for a closer look

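Of 52 sets of libraries of 1 age that were checked for a library far from the rest, 5 stood out, where chance flags about 1 in 20. Adult replicate 2 was the low library for miR-128-3p, at 73.3 CPM, and for miR-128-3p summed over both genes, at 96.2 CPM. The same library was low for miR-455-3p, at 126.8 CPM, which was named as a miRNA with a pattern like that of miR-128-3p. P10 replicate 5 was the high library for miR-128-3p summed over both genes, at 145.05 CPM. P10 replicate 6 was the high library for miR-124-3p summed over its 3 loci, at 2.29 CPM, from 11 counts.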

How the results depend on the processing

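The count of called miRNAs stayed within 1.5 times of 232 in all 21 alternatives (197 to 230 when a library was left out, 201 to 248 otherwise), while the split moved to 54 higher and 187 lower with library totals alone and to 127 and 103 with upper-quartile scaling. The number of called members was 0 in 19 of 22 alternatives, 1 with upper-quartile scaling, 1 with DESeq2 and 0 to 1 when a library was left out. The call was miR-128-3p each time, and the cause was not tested. The list of other neuron-enriched miRNAs had 13 calls and 10 to 17 in its alternatives. The arm ratios gave 0 calls in all 14 alternatives.

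Of the named miRNAs that were followed through the alternatives, 5 changed sign in at least 1 alternative. miR-128-2-3p was at -0.23 with library totals alone, at -0.020 with a mean of at least 10 CPM, and from -0.076 to 0.12 when a library was left out. miR-128-5p was at 0.015 with DESeq2 size factors, 0.085 with upper-quartile scaling, 0.017 with DESeq2, and from -0.22 to 0.012 when a library was left out. With library totals alone miR-3065-5p antisense was at -0.067, against 0.21, and miR-455-3p at -0.023, against 0.25. miR-3597-3-3p antisense was at 0.091 with DESeq2 size factors, 0.16 with upper-quartile scaling, 0.040 with no filter, 0.092 with DESeq2, 0.027 with the replicate block, 0.0077 with rows of 1 name summed, 0.030 with every distinct row, and from -0.15 to 0.17 when a library was left out.

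With the replicate block, over the 5 numbers both ages have, 205 miRNAs and 0 members were called. Same-numbered libraries deviated together with r over 0.1 in 2 of 5 pairs (-0.21 to 0.20), so the numbers were not taken as pairs. Summing the member loci that share a mature sequence, chosen after seeing the data, gave 0 calls. The 8 members under the filter are limited by depth.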
